A study of Drosophila melanogaster with 2 samples.

Results

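Divergent promoters are places where 2 protein-coding genes start back to back and are transcribed away from each other. Of 4593 chromatin immunoprecipitation peaks of the Drosophila melanogaster protein CG7372, 679 (14.8%, 95% Wilson interval 13.8 to 15.8) lay at such a promoter pair. A peak was counted when its summit, its highest point, lay within 500 bp of a minus-strand and of a plus-strand transcription start site (TSS) of different protein-coding genes. The minus-strand TSS had to be at the lower coordinate and the spacing of both at most 1000 bp. The rule uses position alone and no signal. A further 1141 peaks lay within 500 bp of a protein-coding TSS without meeting this rule and are called single-promoter peaks, and 2773 lay away from protein-coding promoters. The 679 peaks thus made up 37.3% of the 1820 peaks at protein-coding promoters.

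The study mapped a transcription factor in 1 group with 2 biological replicates. Both came from whole embryos aged 0 to 24 h of the strain CG7372-GFP, an insertion that adds an eGFP tag to CG7372, and the chromatin was gathered with an antibody against GFP after sonication to 200 to 800 bp. The annotation used here names the gene Phs. Peaks are those of the conservative thresholded list, which the authors made from both replicates by the irreproducible discovery rate (IDR), a filter on agreement of peak ranks. No control library was analysed here, so binding of the factor cannot be told apart from an enrichment at open promoters that does not depend on the factor. In whole embryos of all these ages, binding in fewer cells and weaker binding in each cell cannot be told apart either. Sequencing depth is unknown, and a Wilson interval covers only the counting of peaks or pairs. There is 1 group, so no test between conditions was made.

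As background, genes of the fly genome are densely packed and many start close to a divergent neighbour. The stretch between the start sites of active genes is usually poor in nucleosomes, and transcription factors and architectural proteins bind there. Housekeeping genes, which most cells use, are common at such pairs, and their promoters often carry the DNA replication-related element (DRE, bound by Dref) or Motif 1 (bound by M1BP) rather than a TATA box. A peak between divergent genes does not show which of the genes, if either, the factor acts on.

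The word CATACGCC, with the shorter CGTAT contained in its reverse complement, is a sequence that an earlier analysis picked out at the summits of all these peaks. The sequences below were chosen for holding or lacking a word, so they are examples and do not show how frequent it is. Each is the summit base with the 50 bp on either side of it, read 5′ to 3′ on the plus strand of the Release 6 (dm6) sequence, with no annotated exon in the window. Capitals mark the word named. The first pair are the 2 windows of all 679 that held CATACGCC, at chr3R:24662195-24662295 between Ppox and slo and at chr2L:3699175-3699275 between CG10031 and CG42464.
Ppox/slo: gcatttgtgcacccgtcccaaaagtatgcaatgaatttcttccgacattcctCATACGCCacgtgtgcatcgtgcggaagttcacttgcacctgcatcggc
CG10031/CG42464: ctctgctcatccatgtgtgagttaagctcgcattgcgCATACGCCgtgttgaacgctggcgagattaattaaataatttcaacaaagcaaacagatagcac

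The next 3 are the windows of the strongest peaks without CGTAT on either strand, and they are also the 3 strongest of the 679. They lie at chr3L:5139450-5139550, chr3R:29736792-29736892 and chr3R:15229485-15229585. Long runs of A and T are visible in each.
Tcs5/CHMP2B: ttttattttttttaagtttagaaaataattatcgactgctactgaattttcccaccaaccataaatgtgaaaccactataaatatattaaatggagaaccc
CG7601/CIA30: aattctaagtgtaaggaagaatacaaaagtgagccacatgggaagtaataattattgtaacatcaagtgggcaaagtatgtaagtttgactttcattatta
Art3/mRpS10: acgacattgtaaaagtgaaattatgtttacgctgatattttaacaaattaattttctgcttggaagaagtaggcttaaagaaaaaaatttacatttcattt

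The last pair hold the DRE word TATCGATA and are the strongest such windows among 344 of the 679 peaks, those with no annotated exon in the window and on an arm whose sequence is shown here. Stronger peaks with the word were outside these 344. They lie at chr3R:31252764-31252864 and chr3L:3222985-3223085. They are shown because the DRE is an element of housekeeping promoters and was counted beside CATACGCC.
qless/mRpL32: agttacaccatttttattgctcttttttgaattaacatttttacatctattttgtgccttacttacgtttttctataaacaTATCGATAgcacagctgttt
RpL28/eIF1: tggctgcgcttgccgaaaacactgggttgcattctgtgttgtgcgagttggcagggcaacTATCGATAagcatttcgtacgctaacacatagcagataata

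The annotation held 2667 divergent protein-coding pairs with a spacing of at most 1000 bp, made of 5052 of the 13968 protein-coding genes. Of these pairs 696, or 26.1% (24.5 to 27.8), had a peak, and 1324 genes were in them. With the same rule applied to the thresholded list of each replicate, the share was 18.7% in replicate 1 and 19.8% in replicate 2. Among the 8916 genes outside such pairs, 809 (9.07%, 8.49 to 9.69) had a summit within 500 bp of a TSS. Genes of a pair share their summits, so the share of pairs and the share of single genes have different units. For 33 peaks, 2 or more pairs met the rule, and the pair with the smallest spacing was used for positions. Only 12 of the 679 (1.77%) also had a noncoding TSS within 500 bp.

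Peaks were most frequent where the start sites were 201 to 400 bp apart. A peak lay at 42.3% (38.2 to 46.4) of the 542 pairs spaced 201 to 300 bp and at 39% (34.3 to 43.9) of the 400 pairs spaced 301 to 400 bp. The share was 24.5% (20.6 to 28.8) of 429 pairs up to 100 bp apart and 19.9% (16.1 to 24.3) of 357 pairs over 100 and up to 200 bp apart. Both replicates gave the same order of these groups at the top, with 31.7% and 33.6% at 201 to 300 bp against 14% and 15.7% at over 100 to 200 bp for replicates 1 and 2. The gap between these 2 groups was thus wider than the difference between the replicates. The group over 100 to 200 bp counts copies of the His2B and His2A pair and of the His4 and His3 pair on 2L separately. Further copies of the His4 and His3 pair, spaced 26 bp, are counted in the group up to 100 bp. None of these histone gene copies had a peak, and the shares without them were not computed. Whether reads could be placed at such repeated copies is unknown here.

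The rule itself leaves less room at wide spacing, where both start sites must be within 500 bp of 1 summit. At 501 to 1000 bp, 8.93% (7 to 11.3) of 672 pairs had a peak by the rule. When a summit within 500 bp of either TSS was enough, the share there was 22.6% (19.6 to 25.9), while at 201 to 300 bp it was 43.2% (39.1 to 47.4) and over all pairs 30% (28.3 to 31.8). The higher share at 201 to 400 bp was therefore present with and without the demand on both start sites. This comparison was added after the first one was seen.

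**Figure D1:**
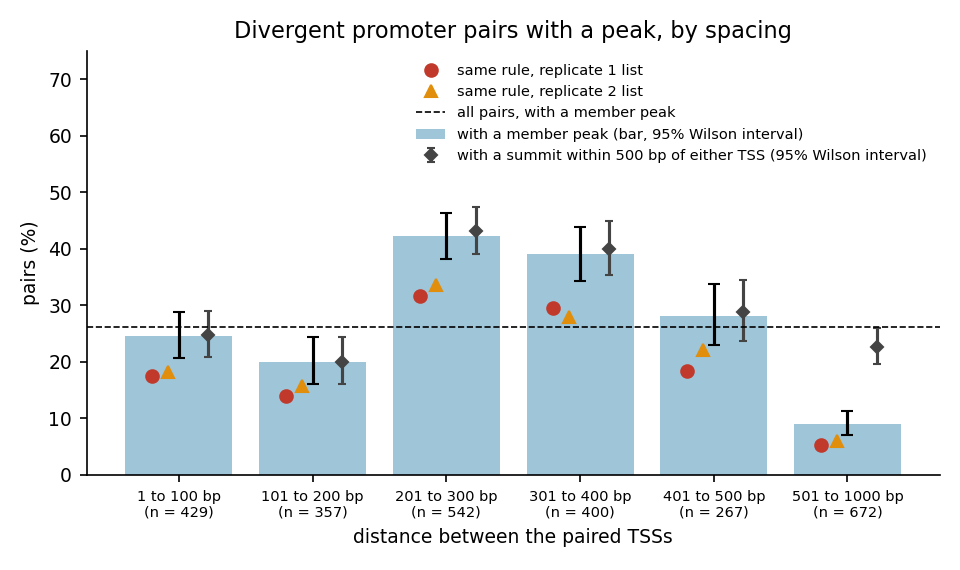
Percent of annotated divergent pairs with a peak, in groups by the distance between the paired start sites. Bars are the conservative list with 95% Wilson intervals, diamonds count a summit within 500 bp of either TSS, circles and triangles apply the rule to the thresholded list of replicate 1 and replicate 2, and the dashed line is the 26.1% over all pairs. The groups at 201 to 300 bp and 301 to 400 bp stand highest by every measure.

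Pairs on all main arms except chromosome 4 had such peaks. The share was 31.5% (28.1 to 35.1) of 683 pairs on 3R, 28.8% on 3L, 25% on 2L, 23% on 2R and 19.9% (16.2 to 24) of 403 pairs on X, while none of the 11 pairs on chromosome 4 had one (upper bound 25.9%). The 2L share counts the histone gene copies as separate pairs. The intervals of 3R and X do not overlap. Replicates 1 and 2 gave 22.3% and 24.7% on 3R against 12.9% and 13.2% on X. Of the 1971 pairs without a peak, 951 (48.2%) had no peak even in the far longer ranked list of either replicate, and 472 (23.9%) had a ranked peak in both replicates.

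Within their pairs, the summits lay mostly between the start sites. A summit between them was found in 529 of 679 peaks (77.9%, 74.6 to 80.9), while 44.2% of the positions that the rule allows at these pairs lie between the start sites. The summits of replicate 1 gave 77.7% and those of replicate 2 gave 78.7%. Of the summits, 41.7% were within 50 bp of the midpoint of the pair, against 15% of the allowed positions. By spacing, this share was 22.5% up to 100 bp, 41.5% over 100 to 200 bp and 68% at 201 to 300 bp. It was 35.6% at 301 to 400 bp and 22.8% at 401 to 500 bp. Most summits were thus within 50 bp of the midpoint only at 201 to 300 bp. No test was made of the difference between summits and allowed positions.

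The median distance from the midpoint was smallest at the spacing where peaks were most frequent. The median distance to the nearer TSS changed less from 201 to 500 bp. It was 94 bp at 201 to 300 bp, 109.5 bp at 301 to 400 bp and 110.0 bp at 401 to 500 bp. It was 84 bp up to 100 bp, 49 bp over 100 to 200 bp and 156.0 bp at 501 to 1000 bp. Whether summits keep to the middle or to a distance from the nearer TSS was not tested. At 201 to 300 bp, 199 of 222 summits (89.6%, 84.9 to 93) were between the start sites, with a median distance of 29 bp from the midpoint, while 34% of the allowed positions lie between. At 301 to 400 bp the corresponding values were 94.5% and 70.5 bp with 53.1% of allowed positions between. At 401 to 500 bp they were 92.4% and 114.0 bp with 82.7%, so there is little room for a difference. At 501 to 1000 bp every allowed position is between, and 18.5% of the summits were within 50 bp of the midpoint against 25% of allowed positions, so no gathering at the middle was seen there. At spacings up to 100 bp, 19 of 102 summits (18.6%, 12.3 to 27.3) were between the start sites and the median distance from the midpoint was 109.2 bp. In these narrow pairs 5.68% of the allowed positions lie between the start sites, so most summits must lie past one. Over all 150 summits outside their pair, 77 were beyond the minus-strand TSS and 73 beyond the plus-strand TSS, a median of 78.5 bp and at most 393 bp past it.

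Summits lay a median of 96 bp from the nearer TSS of their pair, with medians from 49 bp at over 100 to 200 bp to 156.0 bp at 501 to 1000 bp, and of 84 to 110.0 bp in the other groups. Measured to the nearest protein-coding TSS of any kind, the median was 93 bp and 85.7% were within 150 bp. For single-promoter peaks these values were 176.0 bp and 41.4%, although a peak near a pair has more start sites to be near. The summit was upstream of that nearest TSS in 83.2% (80.2 to 85.8) of the peaks at pairs and in 80.7% (78.3 to 82.9) of the single-promoter peaks, whose intervals overlap.

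**Figure D2:**
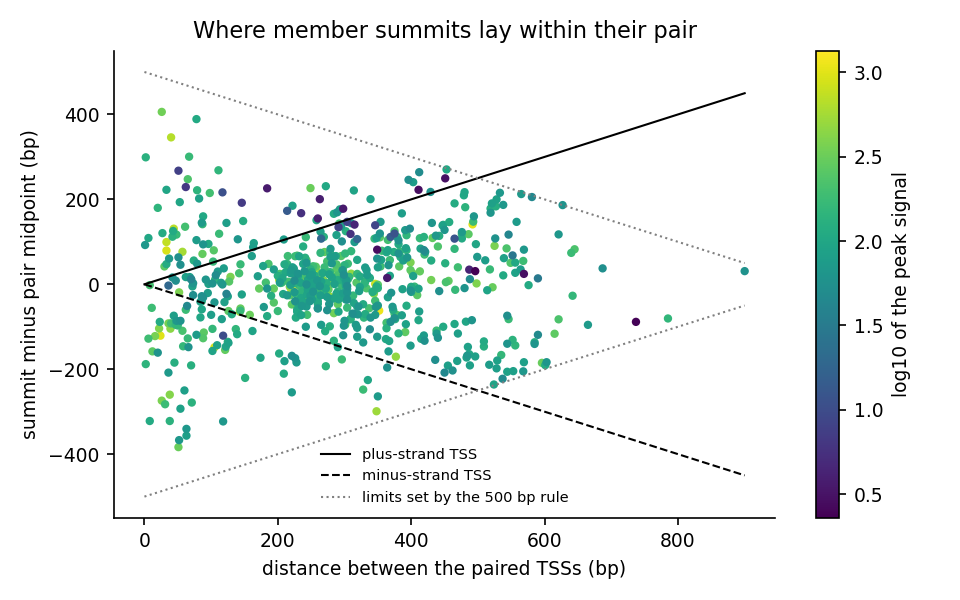
Distance of each summit from the midpoint of its pair against the spacing of the start sites, both in bp, for the 679 peaks at divergent pairs, coloured by the log10 of the signal. Solid and dashed lines are the plus- and minus-strand TSS and dotted lines the limits of the 500 bp rule. Summits gather around 0 at 201 to 300 bp and spread to both sides of the start sites below 100 bp.

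The peaks at divergent pairs were about as strong as those at single promoters. The signal of a peak is the authors' own, in units they do not state, and is compared only within 1 list. Its median was 105.3 (range 2.29 to 1343) at divergent pairs and 101.6 at single promoters, against 82.1 away from protein-coding promoters and 88.3 over all peaks. In replicate 1 the medians were 57.7, 56.5 and 45.5 for these 3 classes, and in replicate 2 they were 50, 49.1 and 39.4. Of the peaks at pairs, 36.1% (32.6 to 39.8) were in the strongest 25% of all peaks, against 33.5% (30.8 to 36.3) at single promoters and 18.8% (17.4 to 20.3) away from promoters. They held 26 of the 100 strongest peaks and 9 of the 25 strongest.

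By spacing, the median signal was highest at 201 to 300 bp with 119.0 and lowest at 501 to 1000 bp with 87. In replicate 1 the medians of these groups were 68.3 and 49.4. In replicate 2 they were 52.1 and 48.3, and there the groups up to 100 bp (54) and over 100 to 200 bp (54.1) were higher than 52.1, so the order of the groups differed between the replicates. The strongest summits were also nearer the middle, with a median of 47.5 bp from the midpoint for the 245 in the strongest 25% of the list and 79 bp for the other 434. Spacing was not held fixed here. Split into 4 groups of nearly equal size by signal, the peaks had a median spacing of 259.0 bp in the strongest and 311.0 bp in the weakest. Whether the distance goes with strength apart from spacing was not tested.

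The share of peaks called in both replicates fell with signal, at pairs as at single promoters. A peak was called in both replicates when it overlapped a peak of each replicate's thresholded list by at least 1 bp. This held for 46.8% of all 4593 peaks, for 386 of the 679 at divergent pairs (56.8%, 53.1 to 60.5) and for 55.9% (53 to 58.8) at single promoters. A further 70 peaks were in the list of replicate 1 alone, 90 in that of replicate 2 alone and 133 in neither, although 675 of 679 had a ranked peak in both. Split into 4 groups of nearly equal size from the strongest to the weakest, 170 of 170 peaks at pairs were called in both in the first group, and 88.8%, 28.4% and 10% in the next 3. At single promoters the same groups gave 99.3%, 87%, 28.1% and 9.12%. The lists of replicates 1 and 2 hold only 2800 and 3080 peaks. The series list was made from the same replicates, so a fall with signal was partly set in advance. When at least 50% of each peak had to be shared, 44.5% were called in both. The summits of both replicates were a median of 29 bp apart, and 44.4% were within 25 bp.

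**Figure D3:**
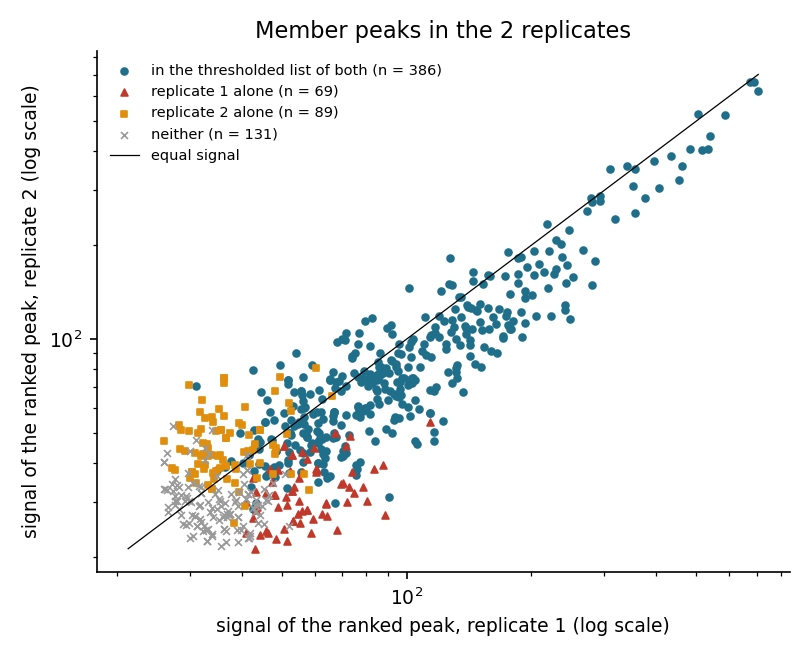
Signal of the ranked peak in replicate 2 against replicate 1, both on log axes, for the 675 peaks at divergent pairs with a ranked peak in both. Symbols show in which thresholded lists the peak was found and the line marks equal signal, on scales that may differ between the lists. The 386 peaks called in both reach the highest signals, and the 131 called in neither lie at the low end of both axes.

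The strongest 25 of the 679 peaks were all called in both replicates. Genes with roles in mitochondria, in RNA modification and in chromatin were at some of them, as were genes with other roles. How frequent these roles were over all 679 peaks was not counted. The strongest lay between Tcs5, a kinase of the complex that adds threonylcarbamoyl to tRNA, and CHMP2B, a subunit of the membrane-cutting ESCRT-III complex. Its signal was 1343, rank 5 of the whole list, with 688.8 in replicate 1 and 665.4 in replicate 2. The summit lay 105 bp from the Tcs5 start and 119 bp from the CHMP2B start, 224 bp apart. This peak was thus nearly midway and of rank 7 in both replicates.

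The next strongest peaks had the same arrangement. Between CG7601 and CIA30, an assembly factor of respiratory complex I, the signal was 1323 with 673.4 and 665.6 in replicates 1 and 2, and the start sites were 220 bp apart. Between Art3, an arginine methyltransferase, and mRpS10, a protein of the small mitochondrial ribosomal subunit, it was 1319 with 704.7 and 624.9 and a spacing of 257 bp. The replicates thus ranked these 3 peaks from 6 to 8 in each list.

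Mitochondrial ribosomal protein genes were at 2 further peaks of this group. Between mRpS23 and CenG1A, a GTPase-activating protein of Arf GTPases, the signal was 1027 with 505.7 and 527.2. Here the start sites were 492 bp apart and the summit lay 105 bp from the CenG1A start. At mRpL23 and CG9004 the signal was 987.7 with 539.7 and 449.0, and the start sites were only 24 bp apart with the summit 109 bp past the mRpL23 start. Elp5, a subunit of the Elongator complex of tRNA modification, shared a peak of 906.8 (516.0 and 402.3) with CG1275, 33 bp away.

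Chromatin and signalling genes followed. The peak of Chro, the chromodomain protein of polytene interbands, and Ssl1, a subunit of the transcription factor TFIIH, had a signal of 887.6 with 483.1 and 407.2. That between brm, the ATPase of the SWI/SNF remodelling complex, and Arl1, an Arf-like GTPase of the Golgi, had 823.5 with 461.9 and 358.4. Its summit was 134 bp and 132 bp from the starts, 1.0 bp from the midpoint. The peak of Atat, which acetylates alpha-tubulin, and Shc, an adaptor of receptor tyrosine kinases, had 825.3 with 434.8 and 387.5.

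The peak between CG13390 and CG17294 had a signal of 938.7 with 533.5 and 407.0. Ranks 12 to 25 of the 679 ran from 783.1 between Pdrg1 and Pal1 down to 549.0 between Mnat9 and CG1792. These included fws, a subunit of the COG complex of Golgi traffic, with Lamtor3 of the Ragulator complex (705.3), Mkk4, a kinase that activates JNK, with SLIRP2 (705.0), Reps with l(2)gd1, which acts in endosomal sorting of Notch (653.5), and the mitochondrial protease gene Lon with PIG-F (607.0). Mppe lay opposite pds5, which encodes a cohesin-associated protein (557.3). In 18 of the 25 the summit was between the start sites, 14 pairs were spaced 201 to 300 bp and 6 up to 100 bp. Over all 679 peaks these counts were 529, 222 and 102. The summit was 80 to 140 bp from the nearer TSS in 20 of the 25, with CG5757 and CG5098, 326 bp, farthest. No rank in either replicate was worse than 102. None of the 25 windows held CATACGCC or the DRE, and 3 held CGTAT. Over all 679 windows the shares of these words were 0.295%, 4.42% and 12.7%.

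Across gene lists chosen by symbol, pairs with a gene of any of 19 lists had a peak in 32.9% (166 of 504), against 24.5% of the 2163 pairs with no such gene. Cytosolic ribosomal protein genes, the parts of the cell's main translation machinery, had 27 of 58 pairs with a peak (46.6%, 34.3 to 59.2). The strongest was RpS27 opposite the nucleoporin gene Nup37, with a signal of 299.9 and 126.9 and 182.1 in replicates 1 and 2. RpL32 opposite CG7943 had 286.8 (176.7 and 110.1) and RpL34b opposite CG8132 had 279.2 (126.7 and 150.1). The lists of replicates 1 and 2 alone gave 36.2% and 41.4% of these 58 pairs, both above the 18.7% and 19.8% of all pairs. With summits within 250 bp of both start sites the ribosomal share was 24.1% (15 to 36.5), an interval that holds the 17.5% of all pairs. With a spacing of up to 500 bp the ribosomal share was 60.5% (44.7 to 74.4) of 38 pairs, against 31.7% of all pairs.

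Mitochondrial ribosomal protein genes had 24 of 60 pairs with a peak (40%, 28.6 to 52.6), and their strongest 3 are those given above, ahead of mRpL24 opposite betaggt-I with 376.2 (185.9 and 182.4). This share was 25% (15.8 to 37.2) in the list of replicate 1, 28.3% (18.5 to 40.8) in that of replicate 2 and 25% (15.8 to 37.2) with the 250 bp limit. These intervals hold the 18.7%, 19.8% and 17.5% of all pairs, so the higher share was not distinguishable from all pairs in any of the 3. Among genes of oxidative phosphorylation 18 of 51 pairs had a peak (35.3%, 23.6 to 49), led by ND-ASHI of complex I opposite Fum1, a fumarase, with 307.3 (144.9 and 163.7). The interval of the last list holds the 26.1% of all pairs, so it is not distinguishable from the background at this number of pairs.

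Some small lists gave high shares with wide intervals. Vacuolar ATPase genes, which encode the proton pump of endomembranes, had 8 of 14 pairs with a peak (57.1%, 32.6 to 78.6), the strongest at Vha100-2 and Vti1b with 168.9 (89 and 80.7). Genes of Elongator and other tRNA modification had 8 of 17 (47.1%, 26.2 to 69). Insulator and architectural protein genes had 4 of 6 (66.7%, 30 to 90.3), which besides Chro were Cp190 opposite CG4338 with 455.5 (266.9 and 193.4), pzg opposite CG12974 with 153.4 (78.8 and 79.3), and M1BP opposite CG8202 with 149.3 (65.9 and 65.8). These intervals lie above 26.1% at their lower bound, but by little for the Elongator list. No allowance was made for the number of lists, here or for the ribosomal lists. The bounds therefore do not show that these small lists differ from all pairs. Of the pairs with a peak, 4 of 8 vacuolar ATPase, 6 of 8 Elongator and 3 of 4 insulator pairs had it in both replicates.

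Other housekeeping lists were not distinguishable from all pairs at these numbers of pairs. Proteasome genes had 7 of 27 pairs (25.9%), splicing genes 7 of 28 (25%), translation initiation factors 5 of 22 (22.7%), DNA replication and repair genes 12 of 43 (27.9%), and Mediator and general transcription factor genes 12 of 40 (30%). Aminoacyl-tRNA synthetase genes had 10 of 27 (37%), nucleoporin genes 8 of 22 (36.4%), ESCRT and membrane traffic genes 22 of 61 (36.1%) and mitochondrial import genes 2 of 7 (28.6%), with intervals that hold 26.1%. Of 14 pairs with Polycomb or trithorax group genes 4 had a peak (28.6%): brm above, E(z), the histone H3 lysine 27 methyltransferase, opposite Cnep1r2 with 362.6 (248.3 and 115.9), Su(z)12 opposite Pfdn6 with 113.3 (57.3 and 49.8), and phol opposite CG3552 with 70.2 (37.2 and 27.4).

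Genes of late or restricted use on the lists were without such peaks. None of the 24 pairs with an odorant, gustatory or ionotropic receptor gene had a peak, which allows up to 13.8%, and none of the 10 pairs with a cuticle protein gene, which allows up to 27.8%. The 8 Hox genes are in no divergent pair. Whether these genes were active in the embryos was not measured.

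**Figure D4:**
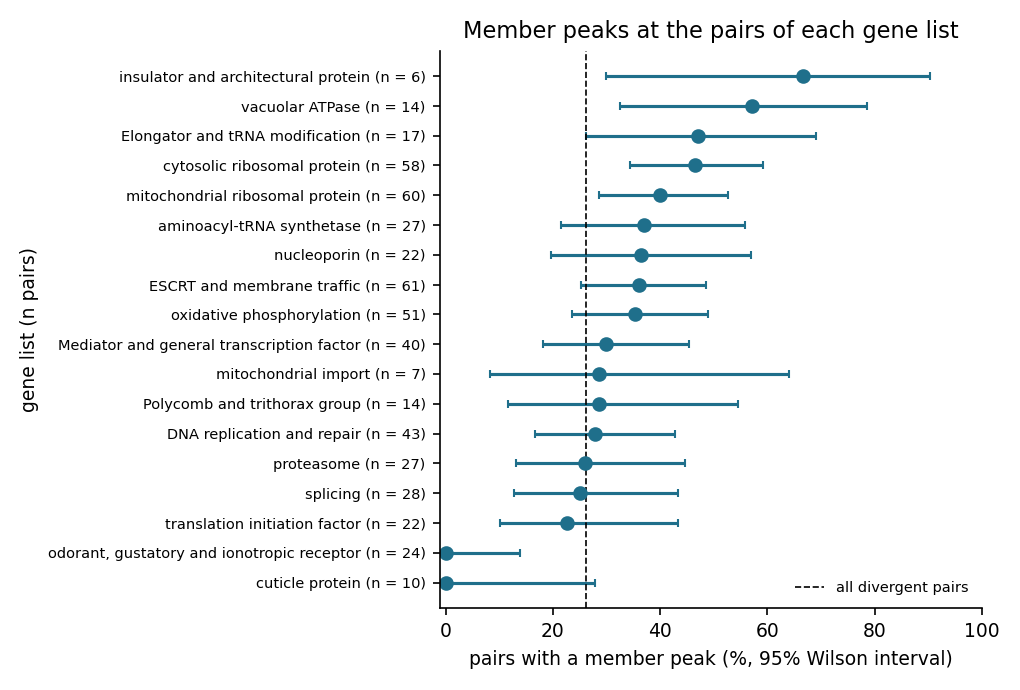
Percent of the divergent pairs of each gene list that had a peak, with 95% Wilson intervals and the number of pairs in brackets. The dashed line is the 26.1% over all pairs. Cytosolic ribosomal protein genes have the highest share among lists of 40 or more pairs, and the receptor and cuticle lists are at 0.

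In 37 pairs both genes belonged to lists, and 13 of these (35.1%) had a peak. Besides those of Tcs5 and CHMP2B, of brm and Arl1 and of RpS27 and Nup37, they joined Vps52, a subunit of a Golgi tethering complex, with the Elongator gene Elp4 (128.0, with 81 and 50.8), and the ribosomal protein gene RpL28 with the initiation factor gene eIF1 (122.2, with 49.5 and 82.8). Cog3 and Sec5, subunits of the COG and exocyst tethering complexes, shared a peak of 117.8 whose signal was 88.6 in replicate 1 and 27.4 in replicate 2, ranks 905 and 4796. The genes mRpL39 and Prosbeta2, a proteasome subunit, shared 83.2 (45.5 and 39.2). These peaks cannot be assigned to either gene.

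At 39 pairs there were 2 peaks, and at none were there more. The pairs of rumi with CG7029 and with Usp12-46 share the same 2 peaks. So do the pairs of mAcon1 with CG43345 and with CG43346. The summits of the 2 peaks were 199 to 236 bp apart, and the weaker had a median signal of 8.55 against 83.3 for the stronger. Whether 2 such peaks are 2 sites or come from the way peaks were called was not tested. At Acbp1, which encodes an acyl-CoA binding protein, and Piezo, a mechanically gated channel, the peaks had 222.5 and 66.7. At the synthetase gene AspRS and Nmda1 they had 88 and 60.3. After merging overlapping peaks, the 679 formed 642 regions.

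The word CATACGCC was nearly lacking at divergent pairs. It stood within 50 bp of the summit, on either strand, in 9.01% of all peaks but in 2 of the 679 (0.295%, 0.0808 to 1.07). The share was 4.29% (3.26 to 5.63) at single promoters and 13.1% (11.9 to 14.4) away from protein-coding promoters. In the list of replicate 1 the shares in this order were 0%, 4.58% and 12%, and in that of replicate 2 they were 0.204%, 3.41% and 11.8%. The 3 classes were therefore in the same order in both replicates. Windows of the same length centred on all 19276 protein-coding TSS held the word in 0.083%. The midpoints of divergent pairs held it in 0.0507% without a peak, 1 of 1971, and in 0 of 696 with a peak. The 2 peaks with it were that between Ppox, an oxidase of haem synthesis, and slo, a calcium-activated potassium channel, with a signal of 177.4, and that between CG10031 and CG42464 with 68.6.

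The shorter CGTAT, searched on both strands and so present in every window with the longer word, stood within 50 bp of the summit in 30.8% of all peaks and in 12.7% (10.4 to 15.4) of those at divergent pairs. In the flanks of the same peaks, centred 300 bp to either side, it stood in 10.7%, which lies inside that interval. At single promoters the share was 21.5% (19.2 to 23.9) and away from promoters 39.1% (37.3 to 40.9), with 10.8% and 10.4% in their flanks. All protein-coding TSS had 10.8%. Strength made no visible difference at divergent pairs, where the share was 11.8% in the strongest of the 4 signal groups and 12.9% in the weakest. In replicates 1 and 2 it was 12.7% and 11.8%.

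The DRE word TATCGATA was found in 1.2% of all peaks and in 30 of the 679 at divergent pairs (4.42%, 3.11 to 6.24), against 1.84% (1.21 to 2.8) at single promoters and 0.144% away from promoters. In all protein-coding TSS windows it stood in 4.48%, although summits and TSS are different places. At the midpoints of divergent pairs it stood in 3.3% (2.21 to 4.91) with a peak and 5.43% (4.51 to 6.52) without one. By this like measure, the pairs with peaks did not exceed those without. The peaks with a DRE were weaker, with a median signal of 74.8 against 107.5 for the others, and its share went from 1.18% in the strongest of the 4 signal groups to 8.82% in the weakest. The replicates differed here. In the list of replicate 1 the share was 1.08% of 464 peaks at pairs and 1.57% at single promoters, and in that of replicate 2 it was 4.89% of 491 and 2.16%, so the order of these classes turned in replicate 1.

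The Motif 1 core GGTCACAC was found in 11 peaks at pairs (1.62%, 0.907 to 2.88) against 4.67% of all protein-coding TSS windows, and the median signal with it was 58.7. At the midpoints of divergent pairs this core stood in 1.87% (1.09 to 3.17) with a peak and 3.15% (2.46 to 4.01) without one. TATAAA, the core of the TATA box, was found in 25.8% (22.6 to 29.2) against 9.94% of the flanks, 17.8% (15.7 to 20.1) of single-promoter peaks and 15.5% of TSS windows. At the midpoints of divergent pairs it stood in 28.2% (24.9 to 31.6) with a peak and 20.8% (19.1 to 22.6) without one. The E-box CAGCTG was in 3.83% and GAGAGA in 1.33%, both less than in the flanks (6.77% and 2.58%). None of the 7 words was present in 390 of the 679 windows (57.4%). A match of letters is not a bound site, and TATAAA on either strand around a summit is not shown to be a TATA box.

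**Figure D5:**
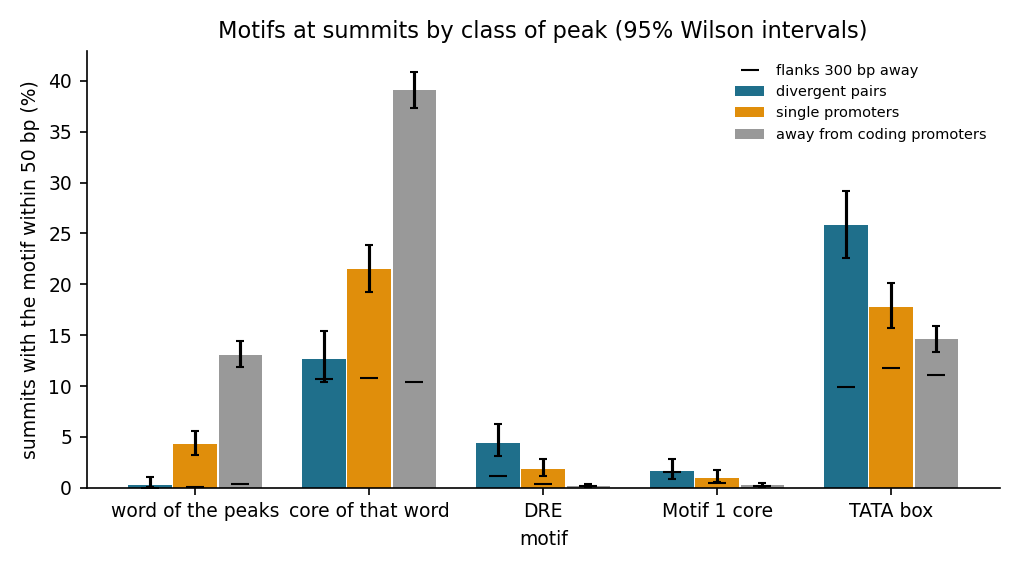
Percent of summits with each motif within 50 bp, by class of peak, with 95% Wilson intervals, and the same in flanks 300 bp away as dashes. The word of the peaks and its core rise from divergent pairs over single promoters to peaks away from coding promoters. The word TATAAA, labelled TATA box, is highest at divergent pairs, where the content of A and T is highest too. The DRE is also highest there in this list, but not in the list of replicate 1 (1.08% against 1.57% at single promoters). The intervals of the Motif 1 core at pairs and at single promoters overlap.

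What most windows shared was a high content of A and T. Its median was 69.3% at the summits of divergent pairs and 53.5% in their flanks, against 65.3% and 56.4% at single promoters and 60.4% and 57.4% away from promoters. From the strongest to the weakest of the 4 signal groups the medians at pairs were 72.3%, 71.3%, 68.3% and 64.4%. Much of this level belongs to divergent pairs in general. At pairs spaced 201 to 300 bp, the midpoint windows had a median of 75.2% where there was a peak and 72.3% where there was none. TATAAA consists of A and T alone, and its part in this content was not tested. Its shares were 25.8% at divergent pairs, 17.8% at single promoters and 14.6% away from promoters, the same order as the content of A and T.

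At the edge of the rule, the last peaks inside the 500 bp limit were those of CIAPIN1 and Su(H), the DNA-binding factor of Notch signalling, with the farther TSS at 500 bp and a signal of 60.4, of Gnpat and CG5112 at 498 bp with 92.6, and of CG31510 and vig2 at 497 bp with 105.0. Just outside were Syx16 and HERC2 at 504 bp with 112.3, beta4GalNAcTB and Cpsf100 at 507 bp with 68.4, and app and CG32100 at 510 bp with 214.5. A total of 33 peaks had the farther TSS between 500 and 600 bp away. The widest pairs inside were CG43127 and CG34238 at 900 bp (59.5), DAT, the dopamine transporter, and CG4945 at 785 bp (153.7), and RpS5a and Chchd2 at 737 bp (2.39). The narrowest were Atg6, an autophagy gene, and Pisd at 1 bp (67.4), and dpa, a subunit of the MCM replicative helicase, and didum, a myosin, at 2 bp (141.4). No peak met the distance limits at a spacing over 1000 bp, since both limits of 500 bp leave no room for one.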

How the data were processed

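Chromatin immunoprecipitation with sequencing was done on 2 biological replicates of 1 group, per the labels. The authors deposited peak lists on dm6, made per the file headers with an IDR step from each replicate or from both. The signal of each peak and the offset of its summit were used as deposited. For the aligner and peak caller, versions and settings were not given in the sources used here. Depth is unknown. Thresholded lists hold peaks with an IDR score of 830 or more. Of 4594 conservative peaks, 1 off the main arms was left out.

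TSS came from the BDGP6.54 annotation of Ensembl release 115 and sequence from NCBI's Release 6 assembly. All peak ends lay within its arm lengths. Python 3.11.15, pandas 2.3.3, numpy 2.4.6, statsmodels 0.14.6 (Wilson intervals) and matplotlib 3.10.9 were used. The member rule and word search were checked on simulated data.

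The rule, the 7 words and the 19 lists were chosen with earlier results of these data known. Genes were named from the 25 strongest peaks, up to 4 pairs per list, pairs with both genes in lists, pairs with 2 peaks and those at the limits of the rule, and the text gives some of these. Not all of the 25 strongest are reported here. Alternatives changed the list, limits, TSS set, overlap and window. The replicate number pairs nothing, as there is 1 group.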

Additional observations from a re-analysis of the deposited data

How the results depend on the processing

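Of 97 alternative values over 13 results, 59 stayed within 1.5 times the count, the Wilson interval or the spread between replicates, and 38 moved. For the percentile and the distance, that spread was the standard deviation of only 2 values. It allowed a percentile of 62 to 62.1, so very small changes of it count as moved. The alternatives for the single-promoter word, the pairs spaced 201 to 300 bp and the ribosomal lists were added after seeing the data. With the thresholded list of 1 replicate in place of the conservative list, the members made up 15.9 to 16.6% of peaks. A peak lay at 18.7 to 19.8% of pairs and at 31.7 to 33.6% of those spaced 201 to 300 bp. The median percentile of the members' signal within their list was 62.1 to 62.2 (62 as reported). The median distance to the nearer TSS was 93 to 105.5 bp and the share with CATACGCC 0 to 0.204%. Among peaks above the median signal, 416 were members (18.1%), 17.2% of pairs and 31.2% of those spaced 201 to 300 bp had one, and 84.9% were in both replicates. With a limit of 250 bp there were 424 (9.23%), at 17.5% of pairs and 37.5% of those spaced 201 to 300 bp, with 61.8% in both replicates and a percentile of 67.7, and 2.38% of single-promoter peaks held CATACGCC. A spacing of up to 500 bp gave 13.4% of peaks, 31.7% of pairs and a percentile of 63.1. With 1 outermost TSS per gene the values were 13.2% and 61.9, and the other series list gave 63.6. A shared overlap of 50% left 44.5% in both replicates. CGTAT stood in 6.33% and 19.9% of members with windows of 25 bp and 100 bp, and CATACGCC in 2.63% of single-promoter peaks with 25 bp. Stricter limits and shorter windows admit fewer peaks and words by construction, and otherwise the cause was not tested.

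No paired analysis was possible because there is 1 group. The 2 replicates limit every statement to agreement between them. Depth is unknown.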

Other observations

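Phs, the gene of the tagged protein, is in no divergent pair. The nearest conservative summit was 107 bp from it.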
